A study of Mus with 2 samples.

Results

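The genes described here are the 8 measured members of the mouse MHC class II antigen presentation pathway that encode its chains, its chaperones and its master regulator: H2-Aa, H2-Ab1, H2-Eb1, Cd74, H2-DMa, H2-DMb1, H2-DMb2 and Ciita. They were chosen by symbol, as 8 of the 32285 genes counted, and all 8 were detected in both sections. Spatial RNA was measured with Visium, which captures RNA on a grid of barcoded spots and counts molecules by their identifiers (UMIs). A spot can cover several cells at once, so fewer cells of a type and less RNA per cell cannot be told apart.

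The tissue was CT26 tumor, grown from a mouse colon carcinoma cell line injected under the skin of BALB/c mice aged 6 to 8 weeks. The control group received PBS, and the rIL7 group received 10 µg of recombinant mouse IL-7 into the peritoneum on days 11 and 13 after tumor cell injection. Tumors of both groups were collected on day 15, and each group is represented by 1 section of 10 µm. With 1 section per group no test between conditions is possible, and every interval below is a 95% interval for counting error alone.

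Class II molecules display peptides from endosomes to CD4 T cells. H2-Aa and H2-Ab1 encode the alpha and beta chains of I-A, and H2-Eb1 encodes the beta chain of I-E. Cd74 encodes the invariant chain, which occupies the peptide groove of newly made class II and steers it to endosomes, where the H2-DM heterodimer (H2-DMa with H2-DMb1 or H2-DMb2) exchanges the remnant of that chain for peptide. Ciita encodes the transactivator that assembles on class II promoters with the RFX, NF-Y and CREB proteins. It is constitutive in dendritic cells and B cells and induced by interferon-gamma in macrophages and many other cells.

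Of the 8 genes, 6 lie on mouse chromosome 17 of the GRCm38 build within the major histocompatibility complex: H2-DMa at 34119693 to 34139101, H2-DMb2 at 34143229 to 34151553, H2-DMb1 at 34153191 to 34160229, H2-Ab1 at 34263227 to 34269418, H2-Aa at 34282744 to 34287823 and H2-Eb1 at 34305867 to 34316674. Ciita lies on chromosome 16 at 10480014 to 10531064. H2-DMb1 and H2-DMb2 are close relatives that can share reads, so the split of UMIs between them is uncertain.

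The control section kept 2219 spots with 22951678 UMIs and a median of 9623 UMIs per spot, and the rIL7 section kept 1950 spots with 25729233 UMIs and a median of 12921.5. Levels are counts per 1000000 UMIs (CPM). Spots within 2 grid steps of the outline of the main tissue piece were called edge (401 control and 330 rIL7 spots), and the rest of that piece interior (1806 and 1599). The median row and the median column of the array divided each section into 4 quadrants, which describe spread within a section and are not replicates. The CT26 genes Rpl39l and Baiap2l1 were present throughout, at 432 and 861 CPM (control) and 379 and 664 CPM (rIL7).

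Summed over whole sections, the pathway differed little between the treatments. Cd74 had 1380 CPM (control) and 1573 CPM (rIL7), 1.14-fold (1.12 to 1.16). H2-Aa stood at 355 and 423 CPM, H2-Ab1 at 577 and 689 CPM and H2-Eb1 at 346 and 470 CPM, ratios of 1.19 (1.16 to 1.23), 1.2 (1.17 to 1.22) and 1.36 (1.32 to 1.4). H2-DMa, at 69.1 and 81 CPM, had a ratio of 1.17 (1.1 to 1.25). The other 3 genes were lower in rIL7: H2-DMb1 at 112 and 103 CPM, a ratio of 0.916 (0.867 to 0.967), and H2-DMb2 and Ciita with intervals that include 1. Ciita held 420 control UMIs and 431 rIL7 UMIs, or 18.3 and 16.8 CPM. With spots weighted equally these 3 had log2 ratios just above 0, at 0.063 for H2-DMb1, 0.044 for H2-DMb2 and 0.053 for Ciita.

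Neither direction reached 1.5-fold for any of the 8 genes, while of the 12988 genes with at least 50 UMIs 5.98% did so upwards and 4.15% downwards. With spots weighted equally H2-Eb1, at a log2 ratio of 0.72, passed 1.5-fold, and the next was H2-Aa at 0.54. The median log2 ratio over the members was 0.21, against -0.0019 over those genes. Quadrants of the sections overlapped for all 8 members, whereas 10.2% of genes had all rIL7 quadrants above the control quadrants and 10.3% had them all below.

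The location of the transcripts differed far more than their amount. In the rIL7 section class II RNA formed a bright rim along the tissue outline, and in the control section it was spread through one side of the tissue with no rim. H2-Aa reached 1137 CPM at the edge of the rIL7 section and 290 CPM in its interior, against 404 and 342 CPM in the control section. Cd74 reached 3527 and 1216 CPM in rIL7, against 1594 and 1325 CPM in the control.

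**Figure D1:**
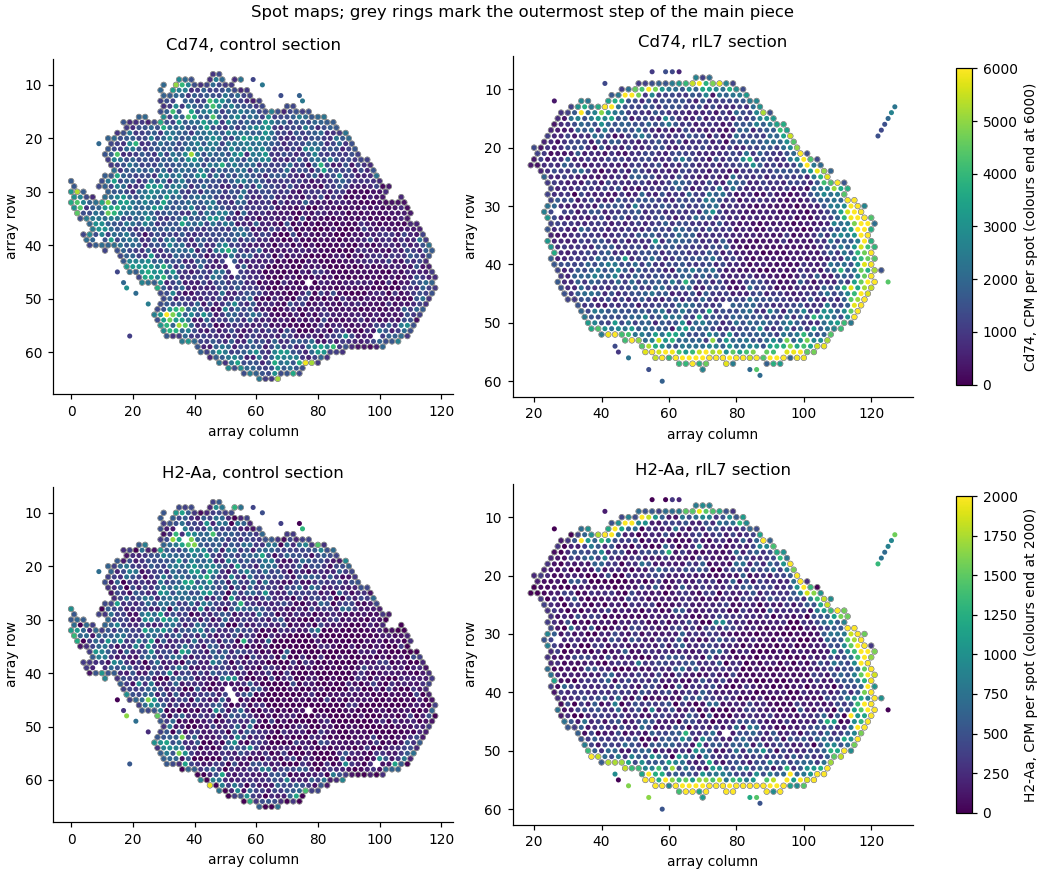
Spot maps of Cd74 (top) and H2-Aa (bottom) in the control (left) and rIL7 (right) sections, with the array column and row of each spot on the axes and its CPM as colour. High values line the right and lower outline of the rIL7 section, where H2-Aa averaged 1137 CPM at the edge, and lie on the left of the control section, which averaged 404 CPM at the edge.

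Comparing edge with edge, all 8 members were higher in the rIL7 section, and 7 of 8 by at least 1.5-fold, against 10.2% of the 10531 genes tested. With an edge of 3 steps H2-DMb1, at a log2 ratio of 0.46, no longer did so, which left 6 of 8. H2-Eb1 had the highest ratio, from 392 CPM (control) to 1257 CPM (rIL7) or 3.21-fold (3.03 to 3.39). H2-Aa followed at 2.81-fold (2.66 to 2.97) and H2-Ab1 at 2.50-fold (2.40 to 2.62), and these 3 intervals did not overlap each other. All 3 chain genes had higher ratios than Cd74, the chaperone, at 2.21-fold (2.15 to 2.28).

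Ciita had a ratio close to that of Cd74, and the peptide exchange genes filled the lower end of the order. Ciita stood at 17.0 CPM (76 UMIs) at the control edge and 37.7 CPM (148 UMIs) at the rIL7 edge, 2.22-fold (1.67 to 2.97), an interval that spans those of H2-Ab1, Cd74 and H2-DMa. H2-DMa, the alpha chain of H2-DM, went from 73.6 to 151 CPM, 2.05-fold (1.79 to 2.35). Its partners differed less: H2-DMb1 was 1.58-fold higher (1.41 to 1.77) and H2-DMb2 1.36-fold (1.08 to 1.70), intervals that overlap.

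The rim was uneven around the tissue. For H2-Aa the 4 edge quadrants of the rIL7 section stood at 600, 923, 1230 and 1941 CPM, against 272, 350, 446 and 537 CPM at the control edge. The edge quadrants of the sections did not overlap for 4 of 8 members (H2-Aa, H2-Eb1, H2-DMa and Ciita), and 9.22% of genes had all rIL7 edge quadrants above the control ones. Cd74 overlapped narrowly, with a lowest rIL7 edge quadrant of 2092 CPM and a highest control edge quadrant of 2143 CPM. All 8 members had their lowest rIL7 edge value in the quadrant of low rows and low columns, and 7 of 8 their highest in the opposite quadrant, H2-DMb2 being the exception. The share of all genes with this placement was not computed, so it is not shown to be particular to the members.

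Within the rIL7 section, edge exceeded interior by at least 1.5-fold for 8 of 8 members, against 10.0% of 12100 genes. The ratio was 3.92 for H2-Aa (3.77 to 4.07), 3.88 for H2-Eb1 (3.74 to 4.03) and 3.24 for H2-Ab1 (3.14 to 3.34). It was 2.91 for Ciita (2.37 to 3.57) and 2.90 for Cd74 (2.84 to 2.96), and it was lowest for the H2-DM genes, at 2.23 for H2-DMa (2.02 to 2.45), 2.23 for H2-DMb1 (2.05 to 2.43) and 1.84 for H2-DMb2 (1.54 to 2.19). Edge quadrants lay above interior quadrants for 7 of 8 members, H2-DMb2 excepted, and for 9.54% of genes.

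The control section showed no such rim. Its edge exceeded its interior by 1.18-fold for H2-Aa (1.12 to 1.25), by 1.2-fold for Cd74 (1.17 to 1.23) and by 1.09-fold for H2-DMa, whose interval of 0.959 to 1.23 includes 1. Ciita was the one member listed lower at the control edge, 17.0 against 18.6 CPM, a ratio of 0.914 (0.703 to 1.17). None of the 8 members reached 1.5-fold, and 1.83% of 11887 genes did. With spots weighted equally instead of by their UMIs, the median log2 ratio over the members was 0.41 in the control in place of 0.22, against 1.58 in rIL7. Edge and interior quadrants overlapped for all 8, while 1.51% of genes had edge quadrants above the interior ones.

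**Figure D2:**
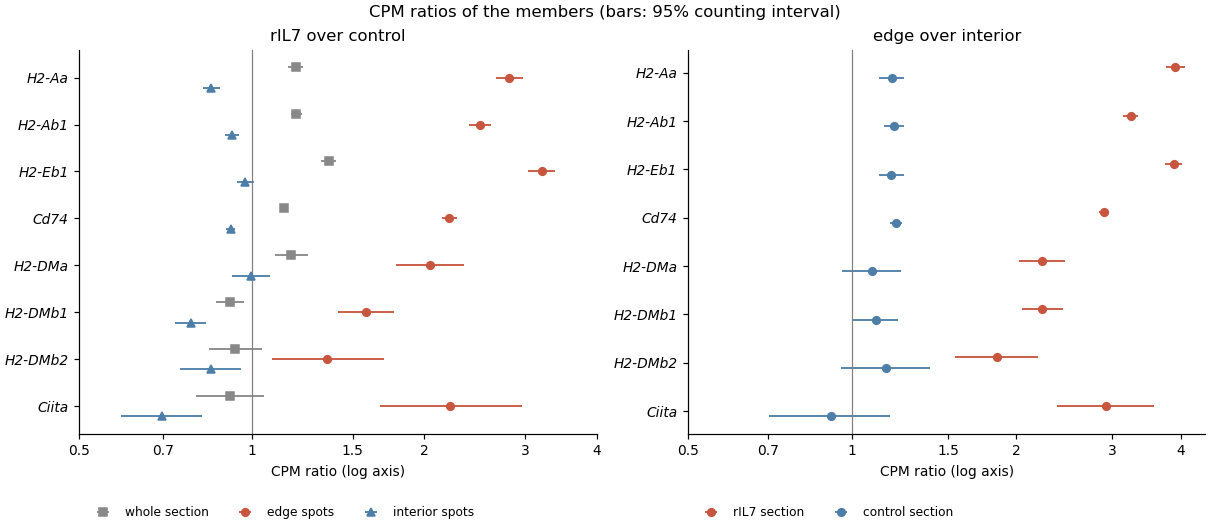
CPM ratios of each member on a log axis, rIL7 over control (left; squares whole section, circles edge, triangles interior) and edge over interior (right; red rIL7, blue control), with bars for the 95% counting interval. Edge ratios run from 1.36 for H2-DMb2 to 3.21 for H2-Eb1, while interior ratios of all 8 members lie below 1 (5 of them lie above 1 with an edge of 1 step or equal weights).

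The rim faded within a few grid steps. In rIL7, H2-Aa went from 1329 CPM in the outermost step to 971, 544 and 415 CPM in the next 3 steps and to 218 CPM at 12 or more steps, a 6.08-fold range. Ciita went from 45.8 CPM to 30.8, 21.9 and 21.4 CPM over the same 4 steps and to 8.91 CPM at 12 or more, a 5.13-fold range. The range was 5.62-fold for H2-Eb1, 4.64-fold for H2-Ab1 and 3.83-fold for Cd74, and for H2-DMb2 it was 2.12-fold. The profiles of the control section were flatter, with a highest to lowest ratio between 1.27 for Ciita and 1.66 for H2-Aa.

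**Figure D3:**
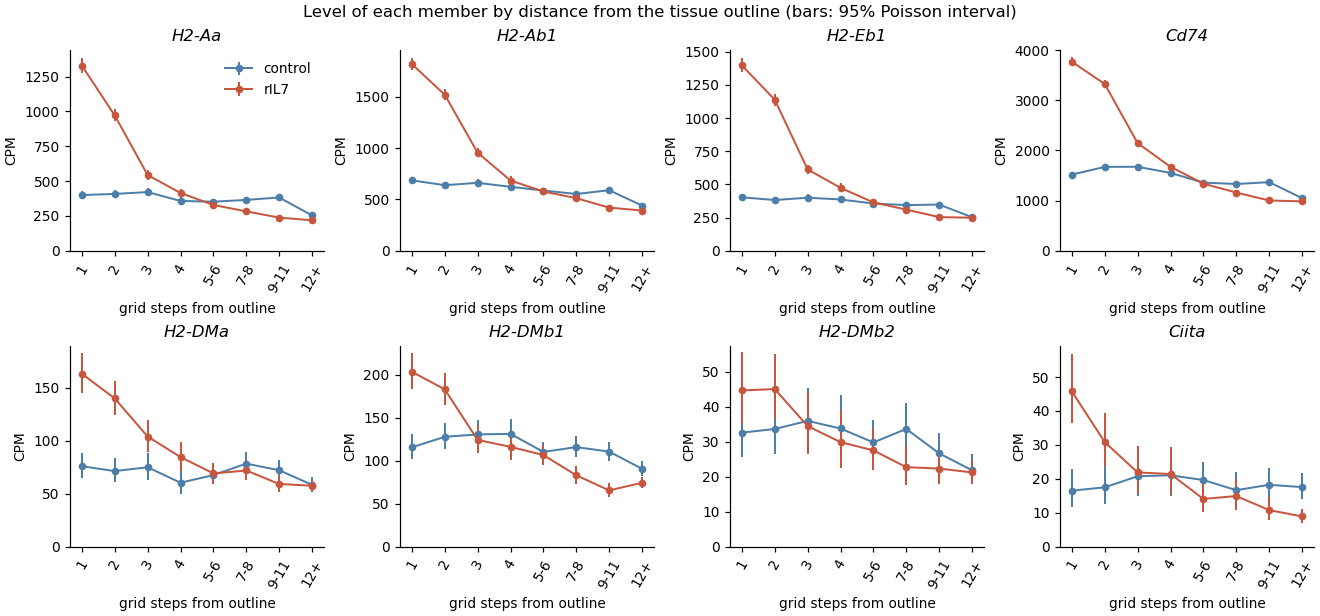
CPM of each member (vertical axes) against grid steps from the tissue outline (horizontal axes) in the control (blue) and rIL7 (red) sections, with 95% Poisson intervals. The rIL7 curves start above the control (1329 against 400 CPM for H2-Aa in the first step) and lie near or below it from steps 7 to 8 inwards (283 against 365 CPM for H2-Aa).

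The curves crossed, so the interior showed the opposite order. At 9 to 11 steps from the outline the control and rIL7 sections had 1366 and 1001 CPM of Cd74, and 111 and 65.4 CPM of H2-DMb1. Over the whole interior all 8 members were lower in rIL7, and the median of their log2 ratios was -0.18, against -0.014 over 12624 genes. None was 1.5-fold lower, as 4.30% of genes were, and none was 1.5-fold higher, as 4.54% were. Interior quadrants overlapped for all 8 members, while 9.02% of genes had all rIL7 interior quadrants below those of the control.

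Ciita had the lowest ratio here, with 18.6 CPM in the control interior (342 UMIs) and 12.9 CPM in the rIL7 interior (280 UMIs), a ratio of 0.696 (0.592 to 0.817). H2-DMb1 followed with 110 and 86.2 CPM, a ratio of 0.782 (0.734 to 0.833). H2-Aa, H2-Ab1 and Cd74 had ratios of 0.849, 0.923 and 0.918, and for H2-Eb1 and H2-DMa the interval included 1. These small interior differences depended on how the interior was drawn and weighted: with an edge of 1 step the median log2 ratio was 0.025, and with spots weighted equally 0.061. In both settings 5 members turned above 0, while Ciita, H2-DMb1 and H2-DMb2 had log2 ratios below 0, at -0.35, -0.24 and -0.16 with an edge of 1 step and at -0.37, -0.16 and -0.12 with equal weights.

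In the control section 7 of 8 members varied more between interior quadrants than between distances from the outline, edge steps included. H2-DMb2 was the exception, with ratios of highest to lowest of 1.45 and 1.65. Interior quadrants of the control ranged from 125 to 546 CPM for H2-Aa, a 4.37-fold spread, and from 594 to 1924 CPM for Cd74, a 3.24-fold spread. The rIL7 interior had smaller spreads for 7 of 8 members, 1.48-fold for H2-Aa and 1.36-fold for Cd74, and for H2-DMb2 a spread of 1.54-fold against 1.45-fold in the control. The quadrant of low rows and low columns, with a median of 12157 UMIs per spot, held the highest control interior value for 7 of 8 members, all but Ciita. The quadrant of high rows and high columns, with a median of 8129 UMIs, held the lowest for 7 of 8, all but H2-DMb2. The quadrant of high rows and low columns was as shallow, with a median of 8083 UMIs, and held the highest Ciita, at 23.5 CPM. For these spreads and quadrant placements the share of all genes was not computed, so the counts do not show a trait particular to the members. The part of sequencing depth in these values was not tested.

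The makeup of the pathway differed along with its amount. Per 1000 Cd74 UMIs, the rIL7 edge held 322 H2-Aa UMIs and its interior 239, a ratio of 1.35 (1.29 to 1.41). H2-Eb1 had 266 in the interior and 356 at the edge, 1.34-fold (1.28 to 1.4), and H2-Ab1 421 and 470, 1.12-fold (1.08 to 1.16). The H2-DM genes ran the other way, with ratios of 0.769 for H2-DMa (0.697 to 0.847), 0.770 for H2-DMb1 (0.706 to 0.840) and 0.635 for H2-DMb2 (0.535 to 0.754). The rIL7 edge thus held more peptide-binding chain RNA and less peptide exchange RNA for each unit of invariant chain RNA.

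No such shift was detectable in the control, where the same ratios of edge over interior lay between 0.903 and 0.993 for these 6 genes with intervals that include 1. The chains of I-A shifted against each other as well: the rIL7 section held 68.6 H2-Aa UMIs per 100 H2-Ab1 UMIs at the edge (66.0 to 71.3) and 56.7 in the interior (55.0 to 58.5), and the control 61.0 and 61.6. H2-DMa per 100 H2-DMb1 differed between sections instead of places, at 60.5 and 61.5 at the control edge and interior and 78.3 and 78.4 in rIL7. Summed over each section this was 61.5 (57.7 to 65.5) against 78.7 (74.3 to 83.4).

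**Figure D4:**
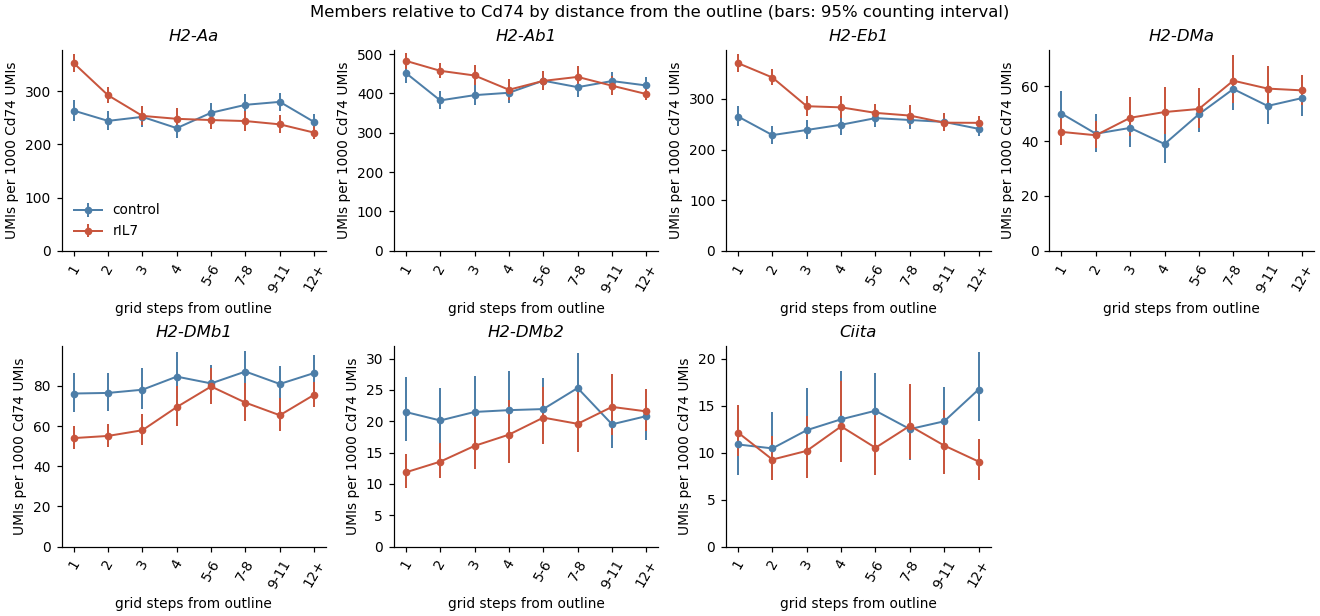
UMIs of each other member per 1000 Cd74 UMIs (vertical axes) against grid steps from the outline (horizontal axes) in the control (blue) and rIL7 (red) sections, with 95% counting intervals. H2-Aa and H2-Eb1 are highest in the outermost rIL7 step, at 353 and 371, where H2-DMb1 and H2-DMb2 are lowest, at 54 and 11.9.

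Ciita kept pace with Cd74 across the rIL7 section. Per 1000 Cd74 UMIs there were 10.7 Ciita UMIs at the rIL7 edge (9.03 to 12.6) and 10.6 in the interior (9.42 to 12), a ratio of 1.0 (0.823 to 1.23), although both genes were about 2.9-fold higher at the edge. The control section held the same 10.7 at its edge (8.39 to 13.4) but 14.0 in its interior (12.6 to 15.6), a ratio of 0.760 (0.592 to 0.976). At 12 or more steps from the outline the sections were farthest apart, at 16.7 in the control (13.4 to 20.7) and 9.06 in rIL7 (7.07 to 11.4). Interior Ciita relative to Cd74 was 0.758-fold in rIL7 against the control (0.647 to 0.889), while at the edge the ratio of 1.0 had an interval of 0.759 to 1.32.

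Relations between genes within a spot were read after each spot was thinned to 5900 UMIs, which left 2002 control and 1869 rIL7 spots. Ciita was sparse: at least 1 UMI was seen in 186 control spots (9.29%, 8.05 to 10.6) and 175 rIL7 spots (9.36%, 8.08 to 10.8). Those spots held more class II RNA than the spots without Ciita. Cd74 averaged 10.1 UMIs with Ciita and 7.44 without it in the control, 1.36-fold (1.3 to 1.43), and 14.5 and 9.23 UMIs in rIL7, 1.57-fold (1.5 to 1.64).

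Within places the rIL7 ratio was smaller. Among rIL7 edge spots Cd74 was 1.31-fold higher in those with Ciita (1.23 to 1.39), and among rIL7 interior spots 1.19-fold (1.11 to 1.27). The control gave 1.16-fold (1.04 to 1.3) at the edge, over 30 spots with Ciita and 296 without, and 1.41-fold (1.34 to 1.49) in the interior. These intervals count UMIs and leave out the spread between spots. For Cd74 the variance between spots was 4.08 times the mean in the control and 8.58 times in rIL7. Over whole sections H2-DMa was 1.0-fold in spots with Ciita in the control (0.770 to 1.28) and 1.57-fold in rIL7 (1.29 to 1.89). Within rIL7 places it was 1.43-fold at the edge (1.07 to 1.89) and 1.28-fold in the interior, where the interval of 0.969 to 1.66 includes 1. H2-DMb2, with few UMIs, had intervals that include 1 in both.

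Among spots of like Cd74 level no difference in Ciita between the sections was detectable. Spots with 0 to 2 Cd74 UMIs held 4.03 Ciita UMIs per 100 spots in the control and 2.99 in rIL7, those with 5 to 6 held 8.30 and 6.21, those with 7 to 9 held 12.2 (8.98 to 16.2) and 8.64 (6.02 to 12), those with 10 to 14 held 13.3 and 11.9, and those with 15 to 24 held 20 (14.5 to 26.9) and 20.1 (14.2 to 27.7). Ciita was listed higher in rIL7 at 3 to 4 Cd74 UMIs, at 4.35 and 5.82, and at 25 or more, at 16.7 (3.44 to 48.7) and 25.8 (17.6 to 36.7). At every level the intervals of the sections overlapped. With so few Ciita UMIs per level, this does not show that the levels were alike. The sections differed in how many spots reached the top: 18 control and 120 rIL7 spots had 25 or more Cd74 UMIs, and 85.8% of the latter lay at the edge.

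**Figure D5:**
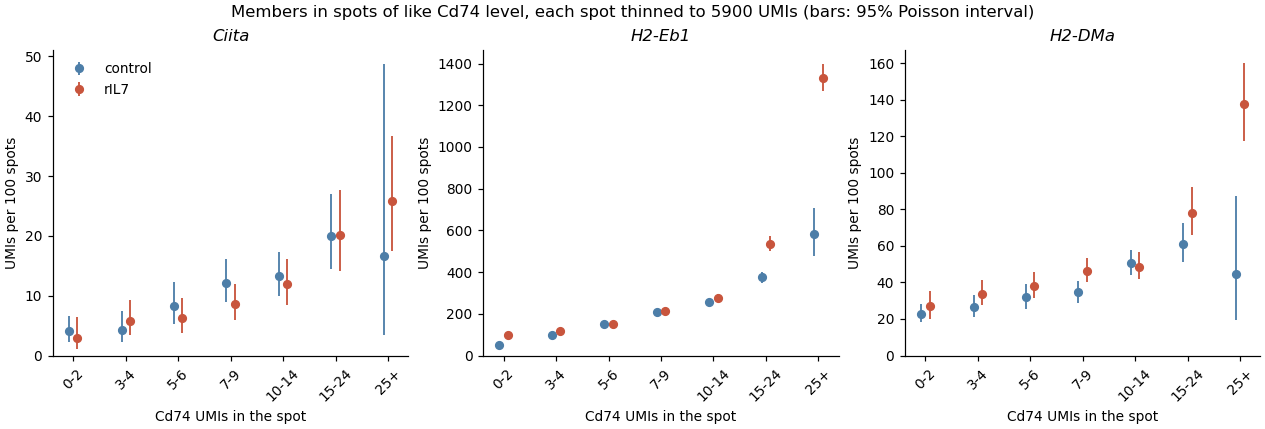
Ciita, H2-Eb1 and H2-DMa UMIs per 100 spots (vertical axes) in spots grouped by their Cd74 UMIs (horizontal axes), control in blue and rIL7 in red, with 95% Poisson intervals. At 15 to 24 Cd74 UMIs Ciita is 20 in the control and 20.1 in rIL7, and H2-Eb1 375 and 536.

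H2-Eb1 did differ at a like Cd74 level, with 375 UMIs per 100 spots in the control (349 to 402) and 536 in rIL7 (503 to 571) where Cd74 was 15 to 24, and with 49.5 (42.6 to 57.1) and 99.5 (86.2 to 114) where it was 0 to 2. Cd74 itself averaged 1800 and 1853 UMIs per 100 spots in the first group and 112 and 151 in the second. At 5 to 6 Cd74 UMIs no difference in H2-Eb1 was detectable, at 151 (137 to 165) and 150 (137 to 164). H2-Ab1 was higher in rIL7 at 0 to 2 Cd74 UMIs too, at 99.7 (89.8 to 110) and 146 (130 to 164). At 15 to 24 it stood at 621 (588 to 655) and 785 (745 to 827), and at 5 to 6 at 264 and 262. H2-Aa ran both ways. It was higher in rIL7 at 0 to 2 Cd74 UMIs, at 51.9 (44.8 to 59.7) in the control and 83.1 (71.0 to 96.7) in rIL7, and at 15 to 24, at 385 (359 to 412) and 465 (435 to 497). At 7 to 9 it was lower in rIL7, at 229 (214 to 244) and 181 (168 to 195). H2-DMb1 was listed lower at 7 to 9 too, with 66.2 UMIs per 100 spots in the control and 53.6 in rIL7. The intervals of 58.5 to 74.8 and 46.7 to 61.2 overlap, which does not show that the levels were alike. Edge spots made up 20.9% of the control and 39.7% of the rIL7 spots at 15 to 24 Cd74 UMIs, so place and level were not separated in this comparison.

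The peptide-binding chains followed Cd74 most closely of all genes ranked. Among 7897 genes with a mean of at least 0.1 UMI per thinned spot in each section, H2-Ab1 ranked 1 by Spearman's rho with Cd74 in both sections (0.643 in the control, 0.632 in rIL7), H2-Eb1 ranked 2 and 3 and H2-Aa 3 and 2. H2-DMb1 had rho of 0.330 and 0.327, ranks 13 and 15. H2-DMa followed at 0.194 and 0.227, Ciita at 0.145 and 0.161 (ranks 112 and 153) and H2-DMb2 at 0.0634 and 0.173. Spots of a section share 1 library and neighbours resemble each other, so these rho are descriptions.

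The order narrowed at equal abundance. When each member was thinned to the mean level of Ciita, rho with Cd74 lay between 0.0362 and 0.213 in the control and between 0.143 and 0.236 in rIL7, where Ciita had 0.145 and 0.161. The low rho of Ciita thus lay within the range of the structural genes at its own abundance. The genes outside the pathway that followed Cd74 best in both sections were Apoe, C1qa, C1qb, Lyz2, Tmsb4x, C1qc, Ctss and H2-K1, with a lower rho over the 2 sections between 0.413 for Apoe, an apolipoprotein made by macrophages, and 0.307 for H2-K1, an MHC class I heavy chain. The complement genes C1qa, C1qb and C1qc and the lysozyme gene Lyz2 are macrophage transcripts, and Ctss encodes cathepsin S, which degrades the invariant chain.

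How closely the chains followed Cd74 also differed with place. At the rIL7 edge rho with Cd74 was 0.840 for H2-Aa, 0.866 for H2-Ab1 and 0.872 for H2-Eb1 over 280 spots, and in the rIL7 interior 0.463, 0.515 and 0.444 over 1578 spots. The control had the reverse order, at 0.486, 0.5 and 0.451 over 326 edge spots and 0.582, 0.652 and 0.592 over 1670 interior spots. The rIL7 edge spots held more UMIs of these genes. Once they were thinned to the control edge level, rho was 0.696, 0.701 and 0.676, still above the control edge values.

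A larger share of class II RNA lay in the spots highest in Cd74 in the rIL7 section. The 10% of spots with the most Cd74 held 37.2% of H2-Aa UMIs in rIL7 (35.8 to 38.6) and 21.0% in the control (19.8 to 22.3), and for H2-Eb1 the shares were 37.6% and 21.5%. For H2-DMb2 they were 24.9% (20.2 to 30.2) and 9.12% (6.24 to 12.8). Those of Ciita were 27.3% (21.0 to 34.3) and 20.4% (15.1 to 26.6), intervals that overlap. Of those spots, 143 of 187 (76.5%, 69.7 to 82.4) lay at the edge in rIL7 and 47 of 200 (23.5%, 17.8 to 30.0) in the control. Among all thinned spots the edge share was 15.0% in rIL7 and 16.3% in the control.

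The factors that share class II promoters with Ciita stood at like summed levels at both edges. The 7 genes Rfx5, Rfxap, Rfxank, Nfya, Nfyb, Nfyc and Creb1, which encode the RFX, NF-Y and CREB subunits, stood together at 223 CPM at the control edge and 216 CPM at the rIL7 edge. None of the 7 was 1.5-fold higher in any of the 5 comparisons, where 1.83% to 10.2% of all genes were, so a count of 0 of 7 is near the background. In rIL7 the log2 ratio of their edge to their interior level had a median of -0.051, where that of the 8 class II members was 1.54. Rfx5 stood at 33.3 and 33.6 CPM at the edges of the control and rIL7 sections. Rfxap was lower in rIL7, at 36.5 and 26.5 CPM at the edges, a ratio of 0.727 (0.563 to 0.935), and in the interior at 0.845 (0.760 to 0.940). For the other genes of this list the interval of the edge ratio includes 1.

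Most of the interferon-gamma axis was higher in rIL7, 11 of 11 genes at the edge and 10 of 11 inside. Of its 11 genes, 6 were at least 1.5-fold higher over the whole section (5.98% of all genes), 6 at the edge (10.2%) and 7 in the interior (4.54%), where none of the 8 class II members was. Cxcl9, a T cell attractant induced by interferon-gamma, stood at 72.5 and 426 CPM at the edges and at 52.6 and 123 CPM in the interiors, ratios of 5.88 (5.22 to 6.65) and 2.33 (2.16 to 2.51). Irf1, which acts on the inducible Ciita promoter, had ratios of 2.41 (2.18 to 2.66) and 1.66 (1.58 to 1.75).

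Inside the tumor Irf1 and Ciita differed in direction: in the interior Irf1 stood at 125 and 208 CPM and Ciita at 18.6 and 12.9 CPM. Ifng itself was sparse, with 8 and 44 UMIs at the edges, or 1.79 and 11.2 CPM, and 45 and 97 UMIs in the interiors. The kinase gene Jak2 was 2.17-fold higher in the rIL7 interior (2.02 to 2.33) but lower at the rIL7 edge than inside it, 95.6 against 122 CPM. The receptor genes Ifngr1 and Ifngr2 stayed under 1.5-fold, at 1.32 and 1.36 between the edges. Across spots Cxcl9 had rho of 0.421 with Cd74 in rIL7 (rank 6) and 0.187 in the control (rank 52).

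The genes that process class II cargo were split. Of 7 genes, 2 exceeded 1.5-fold at the edge over the interior of rIL7, as 10.0% of all genes did: Ctss at 754 and 437 CPM, 1.72-fold (1.65 to 1.80), and Ifi30, a thiol reductase of endosomes, at 314 and 175 CPM, 1.79-fold (1.68 to 1.91). The protease genes Ctsb and Lgmn had ratios of 1.38 and 1.49 and Ctsd of 1.1. Cd68, a macrophage marker that the fixed list of 7 also holds, had 1.16. Ctsl, which encodes cathepsin L, was lower at the rIL7 edge, 2198 against 2665 CPM or 0.825-fold (0.806 to 0.844), and had rho of -0.274 with Cd74 across rIL7 spots against 0.11 in the control.

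Other class II genes were near the detection limit. H2-Oa and H2-Ob, which encode the inhibitor of H2-DM, each had 21 control UMIs, and 33 and 23 rIL7 UMIs. H2-Eb2 had 0 UMIs in both, where a floor of 3 counts is the limit of detection. The class II ubiquitin ligase gene March1 had 200 and 203 UMIs and was 2.14-fold higher at the edge than inside in rIL7 (1.55 to 2.94), and Cd83, which opposes that ligase, was 4.51-fold higher (3.61 to 5.64), with 149 UMIs at the edge.

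Summed markers of macrophages, T cells and endothelial cells were higher along the rim, and those of dendritic cells and fibroblasts varied by gene. The 7 macrophage genes Adgre1, Cd68, Csf1r, C1qa, C1qb, C1qc and Mrc1 summed to 2332 CPM at the control edge and 3553 CPM at the rIL7 edge and to 2130 and 2048 CPM in the interiors, with section quadrants from 1558 to 2723 CPM in the control and from 1800 to 2725 CPM in rIL7. Of these 7, 5 were at least 1.5-fold higher at the edge than inside in rIL7, as 10.0% of all genes were, and 0 were at 0 in either section. The 8 dendritic cell genes summed to 103 and 144 CPM at the edges. Itgax, which made up most of that sum, had 71.8 and 78.5 CPM there. Ccr7 at 4.65-fold (3.33 to 6.47), Batf3 at 3.84-fold (2.67 to 5.48) and Itgax at 1.56-fold (1.37 to 1.77) were higher at the rIL7 edge than inside. Of all genes, 10.0% were at least 1.5-fold higher there. Zbtb46 went the other way, at 0.773-fold (0.601 to 0.983). Flt3, at 6.03-fold (3.63 to 10.1), had 35 edge and 32 interior UMIs. It reached 50 UMIs only through the edge, where it was high, so it is not counted with the others. The 5 B cell genes summed to 4.25 and 9.68 CPM at the edges, with Ms4a1 at 3 UMIs in the control and 2 in rIL7. The 6 T cell genes summed to 27.1 and 214 CPM and the 3 endothelial genes to 52.3 and 75.9 CPM. All 6 T cell genes and all 3 endothelial genes were at least 1.5-fold higher at the rIL7 edge than inside, as 10.0% of all genes were. The 5 fibroblast genes summed to 1855 and 3260 CPM and both CT26 genes to 1205 and 757 CPM. The fibroblast sum was carried by collagen genes, with Col3a1 at 405 and 1029 CPM, while Pdgfra had 149 and 130 CPM and was 0.556-fold at the rIL7 edge relative to the interior (0.507 to 0.610).

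Relative to the macrophage genes, Cd74, the peptide-binding chains and H2-DMa were still higher at the rIL7 edge. Per 1000 macrophage UMIs Cd74 stood at 684 at the control edge (663 to 704) and 993 at the rIL7 edge (970 to 1017), and at 622 and 594 in the interiors. H2-Aa stood at 173 and 320 at the edges and at 160 and 142 in the interiors. Ciita stood at 7.29 (5.74 to 9.13) and 10.6 (8.97 to 12.5) at the edges and at 8.73 (7.83 to 9.71) and 6.32 (5.6 to 7.11) in the interiors. It was thus listed higher at the rIL7 edge as well. The edge intervals overlap narrowly, which does not show that the levels were alike, and the interior intervals do not overlap. H2-DMb1, at 52.2 and 54.2 at the edges, and H2-DMb2, at 14.2 and 12.6, did not differ beyond counting error there. The part of other cell types in these values was not tested.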

How the data were processed

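Visium libraries of 2 frozen 10 µm sections were used. Per the submitters' processing notes, the authors used Space Ranger 1.1.0 and mm10, and what they deposited are UMI counts, unnormalized, for each gene in each spot. The mice were BALB/c and mm10 represents another strain, which can affect the counts of polymorphic class II genes. As in the study, spots over tissue with under 10% mitochondrial UMIs and over 200 genes were kept. Counts were summed over spots and divided by the summed total (CPM). An edge spot was one at most 2 grid steps from the outline of the largest connected piece. Intervals are exact Poisson for sums and Clopper-Pearson for shares and ratios of sums, at 95%, and cover counting error only. No p-value is given, as each group is a single section without replicates. A gene was called at a CPM ratio of at least 1.5 among genes with at least 50 UMIs in the places compared. For relations within spots, each spot was thinned to 5900 UMIs; 217 control and 81 rIL7 spots with fewer were left out.

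The members and lists were chosen with earlier results of these data known. Named genes were the 8 members, the genes of the fixed lists and the 8 other genes with the highest lower rho with Cd74 over both sections. List genes were matched by symbol, and some of them are not reported here by name. Both sections share 1701 spot barcodes, which are fixed positions of the slide design. Alternatives were other spot filters, edge widths, weights, totals, thinning draws and scaling by TMM (edgeR 4.0.16) or median of ratios (DESeq2 1.42.0). Scripts used Python 3.11.15, numpy 2.4.6, scipy 1.17.1, pandas 2.3.3 and R 4.3.3, and were tested on simulated data. Coordinates are RefSeq GRCm38.p6.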

Additional observations from a re-analysis of the deposited data

Results flagged for a closer look

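For all 8 members the difference between sections ran opposite ways at the edge and in the interior, which was not tested since each group has 1 section. As log2 ratios of rIL7 over control, edge then interior, H2-Aa had 1.49 and -0.24, H2-Ab1 1.32 and -0.12, H2-Eb1 1.68 and -0.038, and Cd74 1.15 and -0.12. H2-DMa had 1.03 and -0.0038, H2-DMb1 0.66 and -0.35, H2-DMb2 0.44 and -0.24, and Ciita 1.15 and -0.52. With an edge of 1 step, or with spots weighted equally, 5 of the 8 had interior ratios above 0, as at the edge. For H2-Eb1 and H2-DMa the interior interval includes 0. Ciita also ran opposite ways within the sections, with a log2 ratio of edge over interior of 1.54 in rIL7 and -0.13 in the control. The control value has an interval that includes 0 and was 0.11 with spots weighted equally, and the difference was not tested.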

How the results depend on the processing

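No paired analysis was possible because each group has 1 section, and for the same reason no section could be left out. Filters on spots, both scalings and totals that left out mitochondrial, haemoglobin and ribosomal protein genes kept every member's log2 ratio within its counting interval. The median log2 ratio between whole sections (0.21) reversed to -0.18 in interior spots alone, was 1.15 in edge spots alone and 0.38 with spots weighted equally. In interior spots H2-Aa (-0.24), H2-Ab1 (-0.12), H2-Eb1 (-0.038), Cd74 (-0.12) and H2-DMa (-0.0038) reversed, and H2-DMb1 reversed to 0.66 in edge spots and 0.063 with equal weights. The interior difference (median -0.18) reversed to 0.061 with equal weights (H2-Aa 0.043, H2-Ab1 0.12, Cd74 0.078) and to 0.025 with an edge of 1 step (H2-Aa 0.0078, H2-Ab1 0.093, Cd74 0.042), and was -0.23 with an edge of 3 steps. The edge difference (median 1.15) was 1.36 with an edge of 1 step and 0.90 with 3. Edge over interior in the control (median 0.22) was 0.41 with equal weights. The median rho with Cd74 (0.330 control, 0.327 rIL7) was 0.420 and 0.410 on unthinned UMIs over the spot total, 0.145 and 0.161 at the level of Ciita, and 0.227 in rIL7 interior spots. The median rho with Ciita (0.0765 and 0.130) was 0.175 and 0.199 unthinned, 0.0131 and 0.0442 at that level, and 0.0662 in rIL7 interior spots. Thinning to the control edge level and leaving out detached spots were chosen after seeing the data. Ciita, with 420 and 431 UMIs, and H2-DMb2 limit what can be resolved by place.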

Other observations

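Across long distances Cd74 and the peptide-binding chains kept a higher rho with their own levels than Ciita and H2-DMb2, which had few UMIs. In the control section the rho of a spot's Cd74 with the mean Cd74 of spots at a distance was 0.742 at 1 grid step, 0.699 at 2, 0.667 at 4 and 0.584 at 8. The rIL7 section started near the same value, 0.711 at 1 step, and fell further, to 0.437 at 8 steps. H2-Aa fell from 0.549 to 0.489 in the control and from 0.562 to 0.375 in rIL7 over the same distances. With the mean of its own UMIs in adjacent spots, Ciita had rho of 0.0151 and 0.029 in the control and rIL7 sections and H2-DMb2 0.0183 and 0.0297. At 4 steps Ciita had 0.0772 and 0.119, and H2-DMb2 0.025 and 0.0924. With so few UMIs a low rho does not show that a gene lacked a spatial pattern. Ciita had rho of 0.118 and 0.164 with the Cd74 of adjacent spots in the control and rIL7 sections, close to its rho of 0.145 and 0.161 with the Cd74 of its own spot.

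Costimulatory genes, which antigen-presenting cells display beside class II, were split along the rim. Cd40, the receptor for CD40 ligand of T cells, stood at 15.0 CPM at the control edge and 46.9 CPM at the rIL7 edge, 3.13-fold (2.35 to 4.20), and at 14.1 and 15.3 CPM in the interiors. Cd86 stood at 18.8 and 28.0 CPM at the edges, 1.49-fold (1.11 to 2.01). Cd80 had 21.7 and 17.6 CPM at the edges, a ratio of 0.811 (0.586 to 1.12). Ccr7, the lymph node homing receptor of mature dendritic cells, had 25 UMIs at the control edge and 70 at the rIL7 edge, 3.19-fold (2.00 to 5.26).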
